A study of Arabidopsis thaliana with 36 samples.

Results

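Roots of the Arabidopsis *della5x* line (labelled della quintuple) were compared with roots of its wild-type Landsberg *erecta* (L*er*) after 1 h on mock medium, that is, without salt. The comparison uses 6 of the 36 RNA-seq libraries of the study, which were chosen by their labels alone, 3 of *della5x* and 3 of L*er*. The *della5x* plants carry *rga-t2* and *gai-t6* together with *rgl3-4*, *rgl2-1* and *rgl1-1*, so that all 5 DELLA genes are mutated, and L*er* carries none of them. Seedlings of both genotypes were 5 d old, had been moved to fresh plates without NaCl for 1 h, and gave 1 pool of seedlings per library, of which the lower part of the root was taken. The mutant is a single combined line, so that its DELLA alleles and whatever else distinguishes its genome from that of L*er* cannot be told apart here. The same genotypes were also sampled after 8 h on mock medium and after 1 h and 8 h on 140 mM NaCl, with 3 libraries per group, and those libraries served as a separate reading of the same genotypes.

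Gibberellin (GA) is a growth hormone that acts by removing repressors. When GA binds its receptor GID1, the complex captures DELLA proteins and passes them to an F-box protein, SLY1, for degradation. DELLA proteins sit in the nucleus, where they bind transcription factors and other regulators, among them PIF and BZR1 proteins and the JAZ repressors of jasmonate signalling, and in wild-type plants they hold back root growth and keep GA synthesis in balance through feedback on the GA oxidase genes. A plant without DELLA function lacks this brake whatever its GA level.

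The total count was 17980825 to 22793625 per library in *della5x* and 16772984 to 19105647 in L*er*, and 20980 to 21714 genes had a count in a library. L*er* replicate 1 stood apart from L*er* replicates 2 and 3. Its log2 CPM values (CPM is counts per 1e6 counts) correlated with those of L*er* replicates 2 and 3 at 0.9594 and 0.9556 (Pearson, across genes, which are not independent), less than with *della5x* replicate 1 (0.9696), while L*er* replicates 2 and 3 correlated at 0.9832. L*er* replicate 1 correlated with *della5x* replicate 2 at 0.9664. Among the *della5x* libraries the values were 0.9651 to 0.9795, lowest for replicates 1 and 3. Replicate 1 of *della5x* thus correlated less with its own replicate 3 than with L*er* replicate 1. Replicates 1 and 3 of *della5x* differed by 37.6 times the sampling variance, against 34.9 times for those of L*er*, so the spread was not particular to L*er*. Each list of root tissue markers had a summed level above 0 in each of the 6 libraries, and 0 of the root markers were at 0 in all 6. In such bulk RNA fewer cells of a type and less RNA per cell cannot be told apart. The labels give no batch, plate or extraction day, and the counts of calls, with the lists that changed most, are given with and without L*er* replicate 1.

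Few genes differed between *della5x* and L*er* beyond the spread of the replicates. Of 19417 genes tested with edgeR's quasi-likelihood test, 32 were called (0.165%) at a Benjamini-Hochberg adjusted *P* under 0.05. A call also needed a log2 fold change (*della5x* over L*er*) above 0.5 or below -0.5. Of these, 19 were higher (0.0979%) and 13 lower (0.067%) in *della5x*. Of the called genes 16 lay in 1 stretch of chromosome 5 around *RGL3*, 4 were DELLA genes (*RGL3* counts under both), and none of the called genes belonged to GA synthesis, cell wall or xylem lists. The median log2 fold change of all genes was 0. An unadjusted *P* under 0.05 was found for 2528 genes (13%), 1308 higher (6.74%) and 1220 lower (6.28%). The number called depended on the tool and on 1 library. DESeq2 called 304 genes higher (1.47%) and 223 lower (1.07%), 2.54% in all, and edgeR without L*er* replicate 1 called 356 higher and 182 lower (2.73%). All 32 genes were among the calls of both.

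The mutated genes themselves were read first, because they check the labels. Transcripts of *RGL1* were almost absent from *della5x*, those of *GAI* and *RGA* were reduced but present, and those of *RGL3* were strongly raised. *RGL1* had 0.0481, 0 and 0.176 CPM in *della5x* (1, 0 and 4 counts), against 7.28, 8.58 and 8.34 CPM in L*er*. Its log2 fold change was -6.54 ± 0.54 (SE, adjusted *P* = 0.00439). The 3 *della5x* libraries thus lay far under the lowest L*er* library.

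*GAI* had 7.83, 5.82 and 7.09 CPM in *della5x*, against 21.2, 20.0 and 19.4 CPM in L*er* (log2 fold change -1.54 ± 0.15, adjusted *P* = 0.00952). *RGA*, with *GAI* one of the main DELLA genes of vegetative growth, had 41.2, 40.0 and 40.2 CPM in *della5x*, against 101, 96.6 and 105 CPM in L*er* (-1.32 ± 0.08, adjusted *P* = 0.000801). In both genes the groups were apart and the replicates close together, and *RGA* was the DELLA gene with the most transcript in L*er*. *RGL2*, best known from seed germination, had 4.04, 3.24 and 6.26 CPM in *della5x*, against 16.1, 10.4 and 11.7 CPM in L*er*. Its groups did not overlap either, but with a log2 fold change of -1.49 ± 0.29 its adjusted *P* was 0.138 in edgeR, against 0.000292 in DESeq2, and edgeR called it lower at 8 h on mock medium (-1.40, adjusted *P* = 0.00488).

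*RGL3*, the DELLA gene known to respond to jasmonate and stress, went the other way. It had 223, 340 and 299 CPM in *della5x*, against 3.52, 5.30 and 4.30 CPM in L*er* (log2 fold change 6.03 ± 0.23, adjusted *P* = 0.00012). With these levels the mutated *RGL3* was the most abundant DELLA transcript of *della5x* and the least abundant of L*er* in CPM, a scale that is not corrected for length. Counts per gene do not show which part of a transcript the reads cover, so that the RNA of the *rgl3-4* allele cannot be described further. The 250 bases before the annotated start of *RGL3* (TAIR10.1, chr5:5766247-5766496, minus strand, from RefSeq) are given because it was the DELLA gene with a higher level in *della5x*. Capitals mark TTTGTC, the core of the site bound by zinc finger proteins of the INDETERMINATE DOMAIN family, some of which are DELLA partners.

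RGL3: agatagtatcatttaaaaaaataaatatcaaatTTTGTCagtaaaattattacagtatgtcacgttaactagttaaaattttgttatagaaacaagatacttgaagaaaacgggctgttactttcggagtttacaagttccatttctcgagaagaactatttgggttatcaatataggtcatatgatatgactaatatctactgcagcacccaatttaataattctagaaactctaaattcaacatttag

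**Figure D1:**
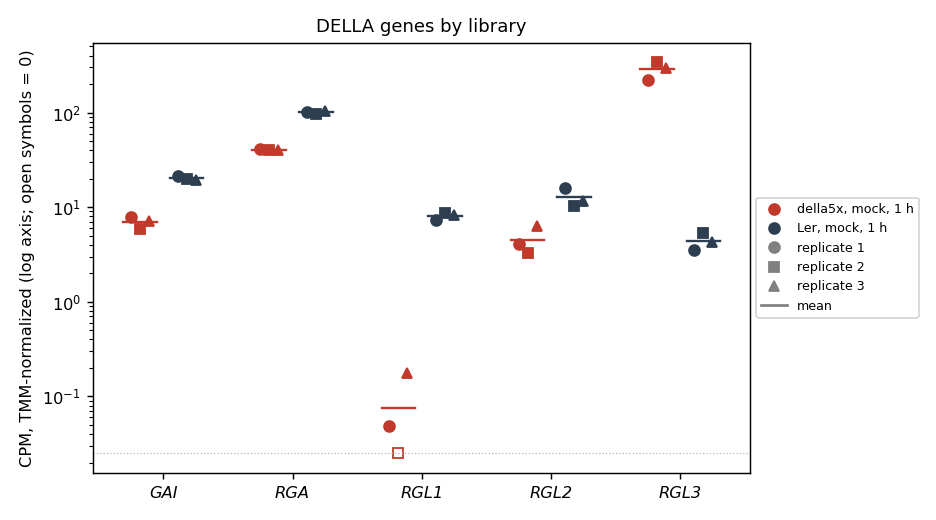
Levels of the 5 DELLA genes in each library, in TMM-normalized CPM on a log axis, with *della5x* on the left of each pair and L*er* on the right. Points are libraries, the short lines are means of 3, and open symbols on the dotted line stand for 0. The *della5x* points of *RGL3* start at 223 CPM and its L*er* points end at 5.30 CPM, while the other 4 genes are lower in *della5x*.

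The called genes were not spread evenly over the genome. Within 1 Mb of *RGL3*, 16 of 437 genes tested were called (3.66%), 12 higher and 4 lower, and 22.7% had an unadjusted *P* under 0.05. Within 1 Mb of the other DELLA genes the calls were 1 of 476 genes for *GAI*, 1 of 200 for *RGA*, 2 of 329 for *RGL1* and 1 of 433 for *RGL2*. For *GAI* and *RGA* that gene was the DELLA gene itself. Outside all these windows 11 of 17542 genes were called (0.0627%), 6 higher and 5 lower. The choice of window changed this little near *RGL3*, with 12 of 220 genes called within 0.5 Mb and 16 of 858 within 2 Mb.

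The 16 genes lay between AT5G14780 and AT5G17900, a stretch of 1150 kb (chromosome 5, 4776733 to 5927041 in TAIR10.1) that holds 249 tested genes. Called and uncalled genes alternated in it: of the 233 uncalled genes 191 had a log2 fold change between -0.5 and 0.5. The stretch includes *RGL3*, whose mutant allele *della5x* carries, and with 1 mutant line linked sequence and loss of DELLA function cannot be told apart there.

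Several genes of the stretch had counts in one genotype and none in the other. *DAR4* and *CSA1* encode immune receptors of the NLR class that work as a pair and are transcribed from neighbouring positions. *DAR4* (chromosome 5, 5916862 to 5923494) had 50.4, 52.7 and 60.7 CPM in *della5x* and 0 counts in each of the 3 L*er* libraries, which makes it at least 989-fold higher against a floor of 3 counts over the L*er* group. *CSA1* (5908834 to 5913317) had 13.6, 14.8 and 13.8 CPM in *della5x* and again 0 counts in L*er*, at least 253-fold higher. The adjusted *P* was 0.000176 for *DAR4* and 0.000801 for *CSA1*. AT5G17090, annotated as a cystatin/monellin superfamily protein, was the reverse case, with 0 counts in *della5x* against 9.10, 5.14 and 7.57 CPM in L*er*, at least 148-fold lower (adjusted *P* = 0.0107).

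Next to the receptor pair, *PSRP6*, which encodes a protein of the plastid ribosome, had 18.9, 18.9 and 15.6 CPM in *della5x* and 0.486, 0.492 and 0.985 CPM in L*er* (log2 fold change 4.74 ± 0.28, adjusted *P* = 0.000801). AT5G17900, a microfibrillar-associated protein-like gene, had 42.7, 40.5 and 43.1 CPM in *della5x*, against 14.9, 14 and 14 CPM in L*er* (1.56 ± 0.09, adjusted *P* = 0.000801). These 4 neighbours, *PSRP6* to AT5G17900, were all higher in *della5x*. On the other side of *RGL3*, *SDG40*, which encodes a SET domain protein, had 13.1, 10.3 and 9.16 CPM in *della5x*, against 1.40, 1.42 and 1.3 CPM in L*er* (2.98 ± 0.22, adjusted *P* = 0.00238). AT5G16250, an uncharacterized protein gene, had 66.3, 58.2 and 57.2 CPM in *della5x*, against 16.2, 14.9 and 14.4 CPM in L*er* (2.00 ± 0.11, adjusted *P* = 0.000427). The RING/U-box gene AT5G15790 was also higher (1.35 ± 0.11, adjusted *P* = 0.00439), although it overlaps annotated genes on the opposite strand, and without strand information in the sources used here their reads cannot be separated.

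Of the 4 lower genes in the stretch, AT5G15360, an uncharacterized protein gene, had the highest level. It had 6.20, 8.84 and 6.92 CPM in *della5x*, against 67.1, 63.0 and 68.8 CPM in L*er* (log2 fold change -3.18 ± 0.15, adjusted *P* = 0.000176). *FDH*, which encodes the mitochondrial formate dehydrogenase, fell less, with 18, 20.3 and 19.5 CPM in *della5x*, against 33.6, 38.6 and 36.3 CPM in L*er* (-0.91 ± 0.10, adjusted *P* = 0.0222). AT5G17340, a putative membrane lipoprotein gene with an annotated gene on its other strand, was low in both genotypes, at 0.433, 0.329 and 0.264 CPM in *della5x* against 3.16, 3.72 and 3.21 CPM in L*er* (adjusted *P* = 0.0152). The other called genes of the stretch, *SMC5*, AT5G16380, *VAR3* and AT5G17840, had log2 fold changes of 1.00 to 1.77 and are named here for completeness, outside the rule for named genes.

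**Figure D2:**
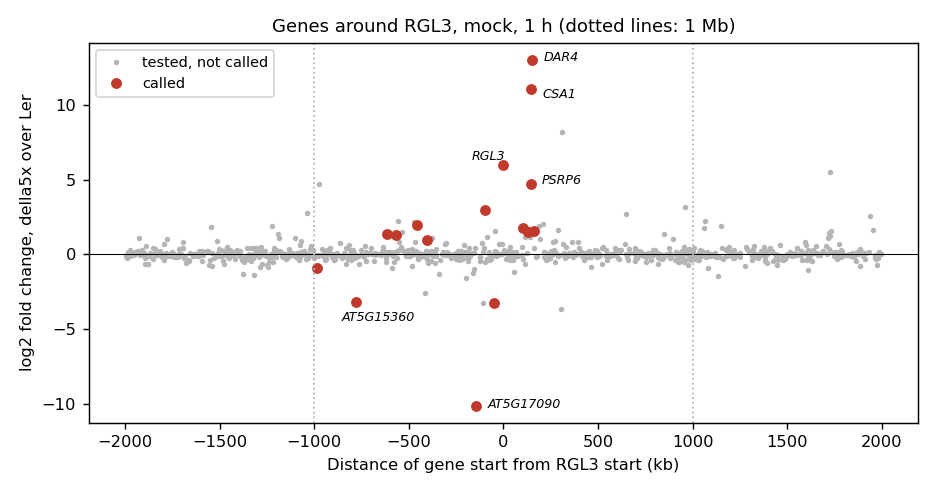
Log2 fold change (*della5x* over L*er*, mock, 1 h) of each tested gene against the distance of its start from that of *RGL3*, in kb, to 2 Mb on either side. Red points are called genes, grey points are not, and dotted lines mark 1 Mb. All 16 called genes lie between -987.3 and 160.4 kb, among grey points that mostly stay near 0.

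Near *RGL1* and *RGL2* calls were few. Within 1 Mb they were 0.608% of the genes tested for *RGL1*, itself among them, and 0.231% for *RGL2*. Of all genes 0.165% were called. AT1G67105, a gene for a non-coding RNA 309 kb from *RGL1* (chromosome 1, 25057479 to 25058264), was among the most abundant called transcripts of the mutant, with 430, 463 and 411 CPM in *della5x*, against 0, 0 and 0.363 CPM in L*er* (7 counts in replicate 3). Its adjusted *P* was 0.000176. AT3G04640, a glycine-rich protein gene 442 kb from *RGL2* (chromosome 3, 1260906 to 1261683), fell to 1.87, 2.63 and 1.28 CPM in *della5x*, against 22.4, 14.6 and 17.7 CPM in L*er* (log2 fold change -3.25 ± 0.29, adjusted *P* = 0.00742). In both genes each library of one genotype was far from each library of the other.

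Elsewhere in the genome 11 genes were called, among them 3 adjacent genes of chromosome 5 some 13201.3 to 13210.0 kb from *RGL3*. *MYC3*, which encodes a transcription factor of jasmonate signalling that JAZ proteins repress, had 140, 158 and 178 CPM in *della5x*, against 88.7, 82.3 and 80.1 CPM in L*er* (log2 fold change 0.92 ± 0.11, adjusted *P* = 0.0324). Its neighbours were *AGD9*, which encodes an ARF GTPase-activating protein, and *UBP21*, which encodes a ubiquitin-specific protease. *AGD9* had 165, 194 and 209 CPM in *della5x*, against 95.5, 97.4 and 98.1 CPM in L*er* (0.96 ± 0.11, adjusted *P* = 0.0206). *UBP21* had 35.7, 36.2 and 38.6 CPM in *della5x*, against 16.9, 17.7 and 16.4 CPM in L*er* (1.11 ± 0.10, adjusted *P* = 0.0055). All 3 were higher in *della5x* by about the same log2 value.

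The gene with the smallest *P* of all was AT4G16215, an uncharacterized protein gene of chromosome 4, with 49.6, 48.1 and 53.2 CPM in *della5x* and 1.76, 1.86 and 1.55 CPM in L*er* (log2 fold change 4.86 ± 0.13, adjusted *P* = 1.32e-05). AT1G34047, a defensin-like family gene, rose to 66.4, 99.9 and 94.5 CPM in *della5x*, against 8.07, 3.01 and 7.62 CPM in L*er* (3.8 ± 0.35, adjusted *P* = 0.00892). AT5G66985, an uncharacterized protein gene, was higher by a smaller step, with 44.7, 44.1 and 43.5 CPM in *della5x* and 23.9, 25 and 22.7 CPM in L*er* (0.88 ± 0.09, adjusted *P* = 0.0129).

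In the opposite direction, AT4G32208, an Hsp70 family gene, was near 0 in *della5x* (0.24, 0.0549 and 0.0441 CPM), against 13.1, 10.2 and 9.90 CPM in L*er* (log2 fold change -6.53 ± 0.45, adjusted *P* = 0.0016). Both AT4G32208 and AT1G34047 overlap another annotated gene, so that their counts are uncertain. Genes of metabolism fell by smaller steps. *NIT1*, which encodes a nitrilase, had 65.5, 60.6 and 53.2 CPM in *della5x*, against 119, 109 and 104 CPM in L*er* (-0.89 ± 0.11, adjusted *P* = 0.0324). *VTC2*, which encodes a key enzyme of ascorbate synthesis, had 15.5, 12.5 and 13.4 CPM in *della5x*, against 24.6, 28.3 and 29.3 CPM in L*er* (-0.99 ± 0.13, adjusted *P* = 0.0465). AT2G34810, an enzyme gene of the berberine bridge family, had 32.7, 30 and 28.5 CPM in *della5x*, against 56.1, 67.4 and 63.9 CPM in L*er* (-1.04 ± 0.11, adjusted *P* = 0.0132). A RING/U-box gene, AT2G42350, had the smallest change of these (-0.67 ± 0.08, adjusted *P* = 0.0377).

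Leaving out 1 library at a time separated these genes. Of the 32, 15 were called in each of the 11 alternative settings, and they were *RGL1*, *RGA*, *RGL3*, AT1G67105, AT3G04640, AT4G16215, AT4G32208 and 8 of the stretch near *RGL3* besides *RGL3* itself. *GAI*, *MYC3*, *AGD9*, *NIT1*, *VTC2* and *FDH* lost the call in at least 3 of the 6 leave-one-out fits, with the same sign in all of them.

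The same genotypes in other libraries gave a separate reading of these genes. At 8 h on mock medium edgeR called 131 of 19250 genes (0.681%), 44 higher (0.229%) and 87 lower (0.452%). All 32 genes called at 1 h had the same sign there and 29 were called, 90.6% of the genes of 1 h and 22.1% of those of 8 h. On 140 mM NaCl at 1 h edgeR called 20 genes (0.102%), and 17 of them were among the 32. On NaCl at 8 h it called 109 genes (0.56%), 23 of them among the 32, and 31 of the 32 kept their sign. The exception was AT2G42350, at 0.03 on the log2 scale. Called with the same sign in all 4 conditions were 17 genes, 11 higher and 6 lower, among them *RGL1*, *RGA*, *RGL3*, *DAR4*, *CSA1*, *PSRP6*, *UBP21*, *AGD9*, AT1G67105 and AT4G16215.

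With the 24 libraries of both genotypes normalized together, the level of *RGL3* in *della5x* was 289 ± 59.6 CPM at 1 h and 159 ± 9.71 CPM at 8 h on mock medium, and 342 ± 95.1 CPM at 1 h and 202 ± 22.2 CPM at 8 h on NaCl (SD, n = 3 each). In L*er* it was 4.38 ± 0.886, 4.05 ± 0.967, 8.14 ± 1.98 and 4.24 ± 1.46 CPM in the same groups. *DAR4* was nearly constant in *della5x*, at 54.8 ± 5.29, 55.4 ± 6.03, 53.9 ± 6.38 and 61.3 ± 7.52 CPM, against at most 0.522 CPM in any L*er* library. The difference between genotypes was tested for a change between conditions as an interaction. For mock 1 h minus mock 8 h edgeR called 0 of 19776 genes (smallest adjusted *P* 0.72, 1312 genes or 6.63% with an unadjusted *P* under 0.05), and DESeq2 called 11. For mock 1 h minus NaCl 1 h edgeR called 0 of 20073 genes (smallest adjusted *P* 1, 826 genes or 4.11% with an unadjusted *P* under 0.05), and DESeq2 called 5.

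**Figure D3:**
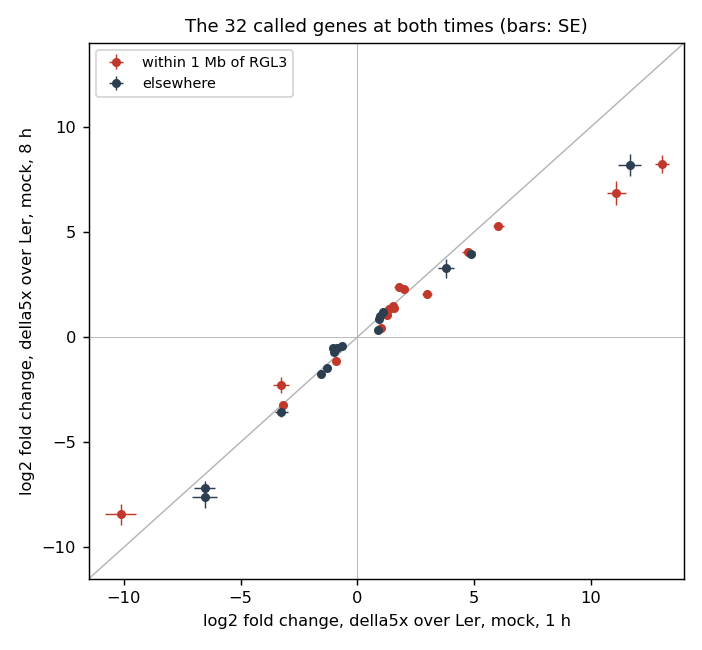
Log2 fold changes (*della5x* over L*er*, mock) of the 32 genes called at 1 h, with 1 h on the x axis and 8 h on the y axis. Bars are standard errors, red points lie within 1 Mb of *RGL3*, dark points elsewhere, and the line marks equal values. All 32 points have the same sign at both times.

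Beyond the DELLA genes, 18 lists of GA, hormone, xylem, wall and cell cycle genes were read. Of their 187 tested genes edgeR called 0, and 42 had an unadjusted *P* under 0.05, 22 higher and 20 lower (22.5%, against 13% of all genes). DESeq2 called 13, of which 8 were higher and 5 lower in *della5x*, while it called 2.54% of all genes. The edgeR fit without L*er* replicate 1, which called 2.73% of all genes, called 13 as well, but not the same genes. *GA20OX2* and *GA2OX2* were called by DESeq2 and not by that fit. *XTH12*, *XTH13* and *XTH26* were called by that fit and not by DESeq2, with their sign turned from the fit of all libraries. The lists were read without L*er* replicate 1 after the data had been seen, so calls made without it are no separate evidence. Values below that did not pass the adjusted test are given as values. Counts per list at an unadjusted *P* under 0.05 are to be read beside 6.74% of all genes higher and 6.28% lower.

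GA synthesis showed the widest differences of these lists. Of its 14 genes 8 were tested, and 1 was higher and 3 were lower at an unadjusted *P* under 0.05. The lower genes were *GA20OX2*, *GA20OX3* and *GA3OX1*, which encode the oxidases of the last steps towards active GA. *GA3OX1* had 1.25, 2.31 and 0.837 CPM in *della5x*, against 6.43, 5.96 and 7.05 CPM in L*er*. The groups did not overlap (9.21% of all genes were apart in this direction), the log2 fold change was -2.16 ± 0.37 and the adjusted *P* was 0.111. *GA20OX2* had 0, 0.329 and 0.0441 CPM in *della5x*, against 2.55, 1.80 and 2.90 CPM in L*er* (-4.30 ± 0.82, adjusted *P* = 0.138). *GA20OX3* had 0 counts in *della5x* and 61 counts over the L*er* libraries (1.64, 1.04 and 0.777 CPM), at least 23.2-fold lower (adjusted *P* = 0.12). DESeq2 called all 3 lower, with adjusted *P* of 1.48e-05 for *GA3OX1*, 4.48e-05 for *GA20OX2* and 0.000153 for *GA20OX3*.

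Other libraries bear on these genes. At 8 h on mock medium edgeR called *GA3OX1* (-2.23, adjusted *P* = 0.00813) and *GA20OX2* (-5.40, adjusted *P* = 0.0104) lower in *della5x*. *GA20OX3* had no count in *della5x* in any of the 4 conditions, and 1.15 to 2.79 CPM on average in L*er*. Of the earlier steps, *GA2*, the ent-kaurene synthase gene, was the one on the higher side, with 14.3, 14.2 and 12 CPM in *della5x* and 9.22, 10.1 and 10 CPM in L*er*. Its log2 fold change was 0.46 ± 0.13 (adjusted *P* = 0.255) at 1 h and 0.06 at 8 h. *GA3*, the ent-kaurene oxidase gene, had 23.3, 28 and 30.6 CPM in *della5x* and 28.8, 27.3 and 30.7 CPM in L*er* (log2 fold change -0.08 ± 0.13), and *KAO1* and *KAO2* were at -0.09 ± 0.15 and -0.06 ± 0.33. *GA3OX2* was at 0.02 ± 0.61, with L*er* replicates between 1.15 and 9.85 CPM, and at -0.45 without L*er* replicate 1. *GA3OX1* was called lower without that library (adjusted *P* = 0.045).

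The 250 bases before the annotated starts of the 3 GA oxidase genes are given because their levels were low or absent in *della5x* (TAIR10.1, minus strand of each, RefSeq). The positions are chr5:21056882-21057131 for *GA20OX2*, chr5:2245340-2245589 for *GA20OX3* and chr1:5346343-5346592 for *GA3OX1*. The motifs searched on both strands were the G-box CACGTG, bound by PIF and MYC proteins, and TTTGTC, which was chosen after the sequences had been seen and is in capitals.

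GA20OX2: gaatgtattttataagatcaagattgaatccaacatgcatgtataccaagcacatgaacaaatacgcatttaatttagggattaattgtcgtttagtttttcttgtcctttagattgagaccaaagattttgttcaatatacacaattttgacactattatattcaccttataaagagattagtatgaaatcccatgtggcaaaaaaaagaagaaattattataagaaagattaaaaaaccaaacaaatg

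GA20OX3: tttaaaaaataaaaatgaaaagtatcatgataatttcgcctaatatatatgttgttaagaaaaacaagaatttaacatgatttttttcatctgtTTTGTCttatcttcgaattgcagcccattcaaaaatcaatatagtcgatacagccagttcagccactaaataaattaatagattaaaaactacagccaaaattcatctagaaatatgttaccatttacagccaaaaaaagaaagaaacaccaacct

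GA3OX1: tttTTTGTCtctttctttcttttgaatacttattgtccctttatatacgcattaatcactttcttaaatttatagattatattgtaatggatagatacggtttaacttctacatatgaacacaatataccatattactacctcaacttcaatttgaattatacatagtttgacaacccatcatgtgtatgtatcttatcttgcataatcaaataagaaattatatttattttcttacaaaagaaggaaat

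CACGTG was found in 0 of these 3 windows and not in that of *RGL3*, and it occurs in 6.49% of 27443 windows of this length. TTTGTC was found once each in *GA20OX3*, *GA3OX1* and *RGL3* and not in *GA20OX2*, and it occurs in 24.1% of the windows, so that a match by itself is common.

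Several genes of GA inactivation were higher in value at 1 h. Of its 7 tested genes 3 had an unadjusted *P* under 0.05, all higher, and the list median was 0.44, against 0 for all genes. *GA2OX2*, which encodes a GA 2-oxidase, had 2.88, 3.29 and 6.70 CPM in *della5x*, against 1.40, 0.929 and 0.674 CPM in L*er* (log2 fold change 2.11 ± 0.45, adjusted *P* = 0.162, DESeq2 0.00221). The groups were apart, as were those of 8.41% of all genes in this direction. *GA2OX8* was at 0.89 ± 0.35 and *GA2OX6*, the most abundant of the list in CPM, at 0.44 ± 0.19, with adjusted *P* of 0.353 and 0.384. At 8 h on mock medium *GA2OX2* was at 0.04, the list median was 0.04 and edgeR called 0 of the 7 genes. *GA2OX1* was lower in value, with the groups apart (-1.60 ± 0.74, adjusted *P* = 0.413), as in 9.21% of all genes in this direction. *CYP714A1* was at -0.27.

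**Figure D4:**
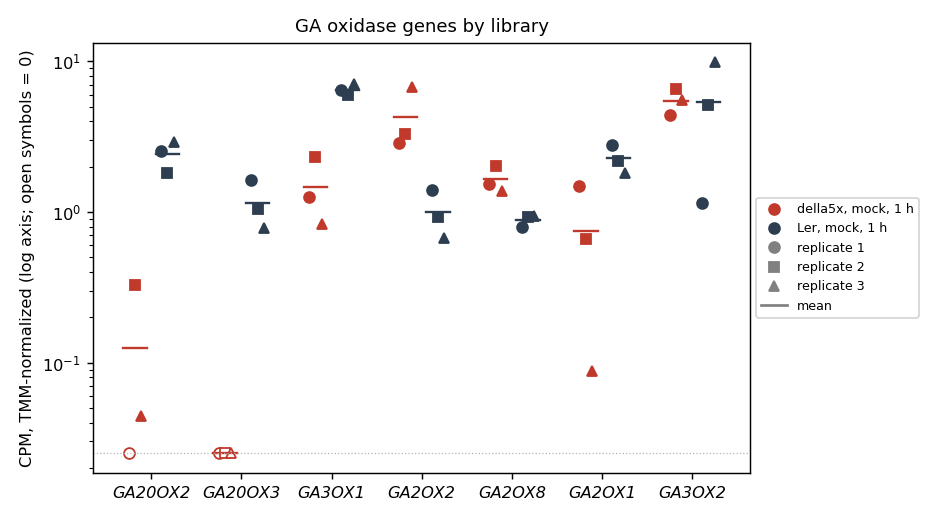
GA oxidase genes in each library (TMM-normalized CPM, log axis), *della5x* left and L*er* right in each pair. Points are libraries, short lines are means of 3, and open symbols on the dotted line stand for 0. *GA20OX3* is at 0 in all 3 *della5x* libraries, and the *GA3OX1* points of *della5x* reach 2.31 CPM, under the lowest L*er* point at 5.96 CPM.

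The genes of GA reception and signalling showed small differences. Of 10 genes 0 were called by edgeR or DESeq2 and 0 had an unadjusted *P* under 0.05, and the log2 fold changes ranged from -0.43 to 0.58 with a median of -0.06. The receptor genes *GID1A*, *GID1B* and *GID1C* were at -0.05 ± 0.18, 0.12 ± 0.27 and -0.23 ± 0.11, and *SLY1* at -0.21 ± 0.12. *SCL3*, a GRAS gene that in wild-type plants opposes DELLA activity, had 14.3, 16.7 and 23 CPM in *della5x* and 26.6, 24.8 and 21.3 CPM in L*er* (-0.43 ± 0.19). Among the 5 GA carriers *NPF4.1*, an importer of abscisic acid and GA, had 1.49, 2.63 and 1.98 CPM in *della5x*, against 0.668, 0.492 and 0.415 CPM in L*er* (1.95 ± 0.41, adjusted *P* = 0.158, DESeq2 0.0159).

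Few classic readouts of GA in shoots had an unadjusted *P* under 0.05 in these roots. Of the 6 tested *GASA* genes, which encode small GA-regulated peptides, 0 had an unadjusted *P* under 0.05. Their log2 fold changes ranged from -0.30 to 0.82 with a median of -0.11. The highest was *GASA5*, at 0.82, and at 1.25 without L*er* replicate 1 (edgeR adjusted *P* = 0.22 in that fit). *GASA4*, one of the GA-responsive members, had 239, 211 and 178 CPM in *della5x* and 199, 266 and 230 CPM in L*er*. Of 5 tested genes known as early DELLA targets of seedlings, *WRKY27* alone was under that threshold (-0.40 ± 0.15, adjusted *P* = 0.348), and *XERICO* was at -0.17 ± 0.17. Of 12 tested transcription factors that DELLA proteins bind, *ARF8* alone was under it (-0.34 ± 0.12, adjusted *P* = 0.333), while *MYC2*, the close relative of *MYC3*, was at 0.15 ± 0.13.

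The *JAZ* genes, repressors of jasmonate signalling and partners of DELLA proteins, were higher in value as a group. Of 10 tested, 9 had a positive log2 fold change, 6 had an unadjusted *P* under 0.05, all higher, and the median was 0.79. *JAZ1* had 90.1, 130 and 221 CPM in *della5x* and 90.5, 56.8 and 52.4 CPM in L*er* (1.14 ± 0.34, adjusted *P* = 0.27, DESeq2 0.0164). *JAZ10* had 5.62, 8.23 and 33.9 CPM in *della5x* and 5.10, 4.86 and 3.52 CPM in L*er* (1.83 ± 0.65, adjusted *P* = 0.319). *JAZ12* was even among replicates, with 74.1, 71.5 and 75.2 CPM in *della5x* and 58.3, 45.0 and 46.5 CPM in L*er* (0.56 ± 0.12, adjusted *P* = 0.154, DESeq2 0.00835). In *JAZ1* and *JAZ10* the highest library was *della5x* replicate 3, and in *JAZ1* the L*er* replicate 1 reached the lowest *della5x* library. Without L*er* replicate 1 the median was 1.08 and *JAZ12* was called higher (adjusted *P* = 0.0242), and at 8 h on mock medium it was 0.02.

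For the xylem the comparison asks whether the genes linked to protoxylem formation differ before salt is added. *VND6*, a NAC master regulator of vessel formation, had 2.07, 4.23 and 2.11 CPM in *della5x*, against 0.971, 0.874 and 1.14 CPM in L*er*. The groups were apart, as were those of 8.41% of all genes in this direction. The log2 fold change was 1.48 ± 0.39 and the adjusted *P* was 0.229 (DESeq2 0.0634). Of the 9 xylem regulators 2 had groups apart on the higher side and 1 on the lower side. With all 18 mock libraries in the fit the adjusted *P* was 0.0433, and over all alternatives it was 0.0433 to 0.676. At 8 h on mock medium *VND6* was at 0.89 (adjusted *P* = 0.388). The other 8 xylem regulators, including *VND7* (0.20 ± 0.28) and *MYB83* (0.29 ± 0.40), had unadjusted *P* values above 0.05. Among them *VND1*, *VND2* and *VND3* were at 0.54, 0.49 and -0.53. The 23 genes of secondary walls and xylem cell death lay within -0.43 to 0.14 (median -0.04, and -0.16 without L*er* replicate 1), with *CESA4* and *CESA7*, cellulose synthase genes of the secondary wall, at -0.01 ± 0.17 and -0.04 ± 0.17.

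Cell wall loosening genes differed in both directions. Among 15 tested alpha-expansin genes *EXPA4*, *EXPA6* and *EXPA15* were higher and *EXPA11* lower at an unadjusted *P* under 0.05. *EXPA15* had 101, 102 and 80.4 CPM in *della5x*, against 70.2, 60 and 54.6 CPM in L*er* (0.62 ± 0.14, adjusted *P* = 0.172). *EXPA4* had 77.7, 107 and 87.5 CPM in *della5x*, against 62.7, 50.4 and 31.4 CPM in L*er* (0.91 ± 0.25, adjusted *P* = 0.232). *EXPA11* had 17.9, 15.8 and 14.7 CPM in *della5x*, against 23.5, 28.6 and 29.8 CPM in L*er* (-0.76 ± 0.13, adjusted *P* = 0.123). At 8 h edgeR called *EXPA15* (0.82, adjusted *P* = 0.0115) and *EXPA4* (0.94, adjusted *P* = 0.039) higher in *della5x*, while *EXPA11* was at -0.12. Without L*er* replicate 1 the test at 1 h called *EXPA11* lower and 4 expansin genes higher, *EXPA1* among them. For *EXPA4*, *EXPA6*, *EXPA11* and *EXPA15* this fit gave adjusted *P* of 0.0497, 0.0344, 0.0295 and 0.0463.

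*EXPA1*, *XTH20* and the peroxidase gene AT2G18150 belong to a list that the study drew as an overlap of sets, most of them from samples of this study, which makes the list no independent evidence. *XTH20* had 20.0, 28.3 and 33.4 CPM in *della5x* and 22.4, 8.58 and 6.32 CPM in L*er* (1.14 ± 0.45, adjusted *P* = 0.353). *EXPA1* had 21.7, 30.1 and 40.4 CPM in *della5x* and 28.8, 12.8 and 8.39 CPM in L*er* (0.89 ± 0.44, adjusted *P* = 0.439). In both, L*er* replicate 1 lay among the *della5x* libraries, and without it *XTH20* (1.87, adjusted *P* = 0.0215) and *EXPA1* (1.54, adjusted *P* = 0.0473) were called higher. These calls are no support for a difference, because they leave out the L*er* library that overlapped *della5x*. AT2G18150 had 0.865, 1.26 and 4.49 CPM in *della5x* and 0.303, 0.547 and 0.415 CPM in L*er* (2.37 ± 0.71, adjusted *P* = 0.269).

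The xyloglucan endotransglucosylase (*XTH*) family, enzymes that cut and rejoin wall xyloglucan, had 27 tested genes, of which 3 were higher and 8 lower at an unadjusted *P* under 0.05, with a median of -0.24. Without L*er* replicate 1 the median was -0.11, with 4 genes called higher and 2 lower, and at 8 h it was 0.13, with 1 called higher. *XTH12*, *XTH13* and *XTH26* were at -0.35, -0.38 and -0.44 with all libraries, and without L*er* replicate 1 they were called higher, at 0.99, 0.87 and 5.92. *XTH26* had 8.32, 8.73 and 8.28 CPM in *della5x*, against 34.4, 0.273 and 0 CPM in L*er*, so that its direction rested on that library. *XTH19* had 32.3, 31.7 and 26.8 CPM in *della5x*, against 45.2, 55.9 and 47.3 CPM in L*er* (-0.71 ± 0.12, adjusted *P* = 0.111, DESeq2 0.000738). *XTH23* had 3.75, 6.15 and 6.74 CPM in *della5x*, against 2.18, 2.46 and 2.80 CPM in L*er* (1.16 ± 0.28, adjusted *P* = 0.204, DESeq2 0.0311). The touch-inducible *XTH22* was uneven, with 1.06, 6.92 and 20.4 CPM in *della5x* and 1.88, 1.31 and 0.985 CPM in L*er* (adjusted *P* = 0.296).

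Most genes of division and of other hormones had small log2 fold changes. Of 16 mitotic genes edgeR and DESeq2 called 0, and 0 had an unadjusted *P* under 0.05. The highest of them was *CDKB1;2*, at 0.56. *CYCB1;1*, a marker of dividing cells, had 15.1, 15.7 and 16.9 CPM in *della5x* and 15.7, 18.3 and 16.8 CPM in L*er*. Among 10 cell cycle inhibitors *KRP5* was at 0.43 ± 0.13 and *LGO* at -0.41 ± 0.15, with adjusted *P* of 0.272 and 0.337. *KRP6* had the largest value of this list, at 0.69, and at 0.99 without L*er* replicate 1 (edgeR adjusted *P* = 0.138 in that fit). Of 8 auxin carriers *PIN3* had 86.5, 104 and 112 CPM in *della5x*, against 66.8, 71.0 and 72.1 CPM in L*er* (0.52 ± 0.11, adjusted *P* = 0.168, DESeq2 0.0102), and *PIN7* was at 0.38 ± 0.10. The 8 tested type-A response regulators of cytokinin signalling had a median of 0.12 (-0.03 without L*er* replicate 1), and 0 of them had an unadjusted *P* under 0.05. The highest was *ARR16*, at 1.54, and at 2.47 without L*er* replicate 1 (edgeR adjusted *P* = 0.101 in that fit).

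The flavonoid pathway had 3 of 7 tested genes lower at an unadjusted *P* under 0.05 and a median of -0.63, against 0.15 at 8 h. *F3H*, a hydroxylase gene of the pathway, had 106, 66.1 and 60.8 CPM in *della5x* and 101, 155 and 130 CPM in L*er* (-0.73 ± 0.24, adjusted *P* = 0.293). Here *della5x* replicate 1 lay with L*er* replicate 1.

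Of 35 tested markers of cell types edgeR called 0, and 2 were higher and 10 lower at an unadjusted *P* under 0.05 (34.3%, against 13% of all genes). DESeq2 called 1 higher and 5 lower, against 1.47% and 1.07% of all genes. The 4 tested genes of photosynthetic shoot tissue were all lower in value, with a median of -1.48, and the summed level of this list was 34.9, 35.7 and 28 CPM in *della5x*, against 55.6, 119 and 116 CPM in L*er*. *RBCS1A*, which encodes a small subunit of Rubisco, had 3.12, 7.08 and 3.79 CPM in *della5x*, against 13.4, 21.4 and 23.6 CPM in L*er* (-2.07 ± 0.34, adjusted *P* = 0.106, DESeq2 1.01e-06). In *RCA*, the Rubisco activase gene, the levels were 22.1, 17.2 and 13 CPM in *della5x*, against 28.1, 61.9 and 54.9 CPM in L*er* (-1.47 ± 0.31, adjusted *P* = 0.162). *RBCS1B*, another gene of the list, was at 0 in all 6 libraries. DESeq2 called all 4 lower, edgeR did so without L*er* replicate 1, and at 8 h edgeR called *RBCS1A*, *RCA* and *PSAN* lower.

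The 7 endodermis markers summed to 525, 517 and 422 CPM in *della5x* and to 498, 757 and 732 CPM in L*er*. Of them 4 were lower at an unadjusted *P* under 0.05, as were 6.28% of all genes. *MYB36*, the 1 endodermis marker with a positive log2 fold change, was at 0.23, and at 0.24 without L*er* replicate 1. Without that library edgeR called *ESB1* and *CASP1* lower. *CASP4*, a Casparian strip membrane protein gene, had 34.6, 37.8 and 28.1 CPM in *della5x*, against 38.2, 49.7 and 55.0 CPM in L*er* (-0.51 ± 0.17, adjusted *P* = 0.288). The 5 root hair markers summed to 314, 227 and 227 CPM in *della5x* and to 460, 212 and 212 CPM in L*er*, where replicate 1 was more than all others, and their median log2 fold change was -0.21, and 0.12 without it. *COBL9*, a root hair wall gene, had 40.2, 25.7 and 31.3 CPM in *della5x*, against 59.3, 49.1 and 49.8 CPM in L*er* (-0.70 ± 0.17, adjusted *P* = 0.202). It was the 1 root hair marker with an unadjusted *P* under 0.05. Of the 5 markers 4 had a negative log2 fold change, and that of *COBL9* was the largest. *RHD6*, *RSL4*, *PRP3* and *LRX1* were at 0.09, -0.21, -0.01 and -0.34. Without L*er* replicate 1 they were at 0.15, -0.07, 0.81 and 0.12. Xylem markers summed to 288 to 361 CPM in *della5x* and 291 to 374 CPM in L*er*, and phloem markers to 73.7 to 95.6 CPM and 63.7 to 79.4 CPM. In the endodermis and photosynthesis lists L*er* replicate 1 was the lowest L*er* library. It lay within the *della5x* range for the endodermis. For photosynthesis it was at 55.6 CPM, above the highest *della5x* library at 35.7 CPM. The part of tissue makeup in the differences of the gene lists was not tested.

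**Figure D5:**
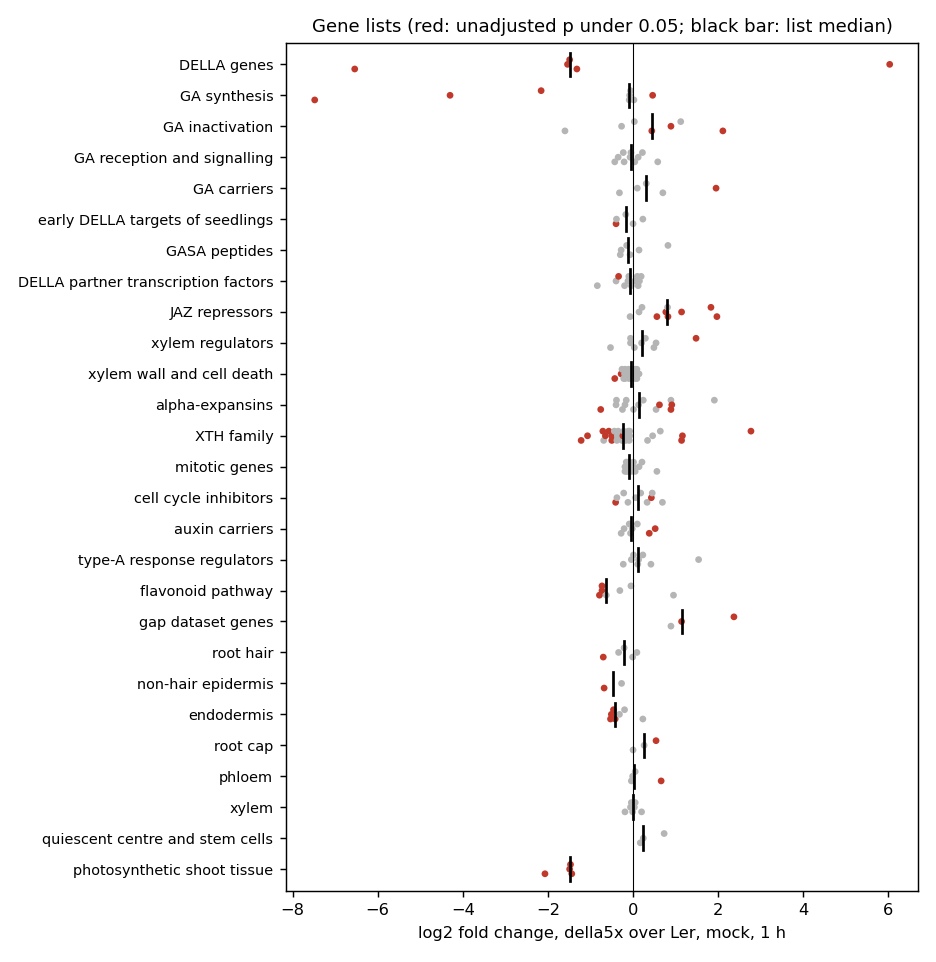
Log2 fold change (*della5x* over L*er*, mock, 1 h) of each tested member of the gene and marker lists. Points are genes, red at an unadjusted *P* under 0.05, and black bars are list medians. The photosynthetic shoot list has its median at -1.48 and the *JAZ* list at 0.79, while the mitotic list has its median at -0.09.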

How the data were processed

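The 6 libraries were taken from a table of 36 libraries. Reads had been cleaned with fastp, aligned to TAIR10 by HISAT2 and assigned to genes by HTSeq, and the authors deposited raw counts of 28775 genes without normalization. Tool versions, counting mode and strandedness are not given in the sources used here. Positions and symbols come from TAIR10.1, in which 28009 identifiers were found.

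Counts were analysed with edgeR 4.0.16 in R 4.3.3, with TMM normalization, filterByExpr (minimum count 10, minimum total 15), 1 coefficient per group, glmQLFit and glmQLFTest, and Benjamini-Hochberg adjustment over all genes tested. The study used DESeq2, which is the alternative here (1.42.0). SE values come from the fitted fold change and its F statistic. Errors after means are SD over 3 libraries. The scripts were tested on simulated data. Library totals were 16772984 to 22793625, which limits precision for genes with few counts. The floor for a group without counts was 3 counts over the group, and covers counting error only.

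Labels gave the groups and carry no replicate numbers, so replicates are numbered in accession order and nothing was paired. Replicates are described as biological pools, and pairs within a group differed by 11 to 37.6 times the sampling variance.

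Members and gene lists were chosen with earlier results of these data known. Named genes are list members, the 10 called genes with the smallest *P* per direction, up to 3 called genes near each DELLA gene by fold change, and the 10 called genes per direction with the highest mean CPM. Alternatives were RLE size factors, no low-count filter, DESeq2, other sets of libraries, no fold threshold, other windows, and each library left out. Reading the lists without L*er* replicate 1 and with DESeq2 was added after seeing the data. The genes *SMC5*, AT5G16380, *VAR3* and AT5G17840 were named for completeness, and the TTTGTC motif was chosen after the sequences were seen.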

Additional observations from a re-analysis of the deposited data

How the results depend on the processing

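No paired analysis was possible because the labels carry no replicate numbers. No setting turned the sign of any of the 87 genes followed through all of them (the 32 called genes and the 55 uncalled list members with an unadjusted *P* under 0.05). Of all 220 list members tested, 25 turned their sign without L*er* replicate 1, 0 of them with an unadjusted *P* under 0.05 before. RLE size factors and the absence of a fold threshold left the 32 calls as they were. The counts of calls moved widely, and the cause was not tested. With DESeq2, 304 genes were called higher and 223 lower, 49 within 1 Mb of *RGL3*, 443 outside the windows of the DELLA genes and 13 in the gene lists outside the DELLA genes, and the interactions gave 11 calls for time and 5 for salt. With all 18 mock libraries in the fit these counts were 207 higher, 229 lower, 43 near *RGL3*, 359 outside and 13 in the lists. With all 12 libraries of 1 h 20 genes were called outside the windows and 1 list member (*GA20OX3*, adjusted *P* = 0.0383), and without the low-count filter 17 outside the windows. Leaving out each library in turn gave 11 to 356 genes higher, 5 to 182 lower, 9 to 33 near *RGL3*, 3 to 470 outside and 0 to 13 list members. The highest values, 356, 182, 33, 470 and 13, came without L*er* replicate 1, and the lowest numbers of genes, 11, 5, 9 and 3, without L*er* replicate 3. Without *della5x* replicate 1 there were 45 calls, without *della5x* replicate 2 21, without *della5x* replicate 3 18 and without L*er* replicate 2 20. Genes of about 1 CPM, such as *GA20OX3* and *VND6*, are the ones that depth limits most.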

Other observations

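Genes called at 8 h on mock medium, in libraries that the 1 h comparison does not use, were read at 1 h. Of the 131 genes 129 were tested at 1 h, 121 had the same sign and 95 (73.6%) also had an unadjusted *P* under 0.05, against 13% of all genes. Of these edgeR called 29 at 1 h and DESeq2 75. The 43 tested genes that were higher at 8 h had a median log2 fold change of 1.01 at 1 h and 1.14 at 8 h, and the 86 that were lower had -0.90 at 1 h and -0.91 at 8 h.

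Several of them were in none of the lists and were chosen after their values were seen. *GRF7*, which encodes a phosphoprotein-binding regulator, had 128, 153 and 139 CPM in *della5x*, against 77.0, 79.0 and 89.1 CPM in L*er* at 1 h (0.78 ± 0.11, adjusted *P* = 0.06, and 0.82 at 8 h, adjusted *P* = 0.000996). *AGL12*, a MADS box gene of root development, had 54.5, 43.6 and 54.5 CPM in *della5x*, against 30.1, 19.3 and 30.1 CPM in L*er* (0.94 ± 0.19, adjusted *P* = 0.149). *NAS2*, which encodes a nicotianamine synthase of metal transport, had 31.5, 51.2 and 44.9 CPM in *della5x*, against 23.2, 24.3 and 15.6 CPM in L*er* (1.01 ± 0.23, adjusted *P* = 0.172). In the other direction the apoplastic peroxidase gene *PRXCB* had 63.3, 88.1 and 106 CPM in *della5x*, against 417, 211 and 187 CPM in L*er* (-1.66 ± 0.33, adjusted *P* = 0.149, and -1.60 at 8 h, adjusted *P* = 1.3e-05). The aldehyde dehydrogenase gene *ALDH2B4* had 88.3, 112 and 114 CPM in *della5x*, against 174, 191 and 171 CPM in L*er* (-0.77 ± 0.12, adjusted *P* = 0.0898). In each of these 5 genes the groups did not overlap at 1 h, as in 17.6% of all genes.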
